A study of Rattus norvegicus with 12 samples.

Results

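The comparison covers the response of Grin3a knockdown neurons to the return of electrical activity, as 3 libraries taken 6 h after removal of tetrodotoxin (TTX), the group KD_TTXwd, against 3 libraries kept in TTX, the group KD_TTX. These are 6 of the 12 libraries of the series, and the response was tested for 10689 of the 10730 genes in the deposited table. The cells were hippocampal neurons of rat (strain CD, Sprague Dawley), prepared from male and female embryos at E18.5 and collected on day 7 in culture. A pLKO.1 lentivirus given on day 1 carried an shRNA against Grin3a, and the other 6 libraries (Ctrl_TTX and Ctrl_TTXwd) came from cultures given the same virus with no insert. All 4 groups received 1 µM TTX on day 5 for 48 h, so every library, controls included, had been silenced before it was collected. 1 shRNA sequence is given in the labels, and the control is an empty vector, so an effect of Grin3a loss and an effect of this shRNA cannot be told apart. The control columns of the deposited table are named with the prefix scr, whose meaning is not given in the sources used here. The submitters describe biological triplicates, and nothing says whether they came from separate preparations. The p-values therefore measure the spread between these samples.

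TTX blocks voltage-gated sodium channels and so stops action potentials. When it is washed out, synapses become active again, calcium enters through NMDA receptors and L-type channels, and kinases switch on a fast set of transcription factor genes followed by effector genes such as Bdnf. Grin3a encodes GluN3A, an NMDA receptor subunit of young neurons that lowers the receptor's calcium permeability and is known for holding back the maturation of synapses, and the series title asks how it bears on activity-induced transcription. The shRNA target is shown because it defines the knockdown. It is written in lower case and without a coordinate.
Grin3a shRNA target: gctccatgacaagtggtacaa

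Values are the authors' FPKM, a level scaled to transcript length and to the total of each library. Their sum over the kept genes ran from 428070 to 517703 per library, and the median gene stood at 17.1 to 18.9 FPKM. The number of reads per library is not given in the sources used here, so counting errors are unknown. Grin3a (chr5:69420057-69564696, rn5) checks the labels. It stood at 9.30, 6.01 and 4.77 FPKM in KD_TTX, and at 5.22, 3.32 and 2.50 FPKM in KD_TTXwd. The KD_TTX mean was 33.6% of the Ctrl_TTX mean, and the KD_TTX and KD_TTXwd libraries overlapped. The withdrawal group was at 55.0% of the TTX group, a log2 difference of -0.72 with an exact two-sided permutation p of 0.2, where 3 against 3 cannot go below 0.1. limma gave it an adjusted p of 0.256, and the authors' deposited table gives a log2 fold change of -0.86 with a q-value of 0.0443. The library labelled Ctrl_TTXwd replicate 3 held 4.88 FPKM of Grin3a, inside the range of the knockdown libraries, whereas the other 5 control libraries held 13.8 to 23.0 FPKM. Its summed level of glutamatergic neuron markers was 374.5 FPKM, against 789.5 and 1028 FPKM in Ctrl_TTXwd replicates 1 and 2. Its summed level of microglia markers was 2820 FPKM, against 1143 and 193 FPKM. The part of cell content in its Grin3a value was not tested. This library enters the knockdown tests below through the shared estimate of spread. It enters the control response and the difference between the responses through its own values as well. The counts without it are given with each.

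Withdrawal changed 1514 genes in knockdown neurons, 14.2% of those tested, at an adjusted p below 0.05 (limma on log2(FPKM + 1), Benjamini-Hochberg adjustment). Of these, 985 fell (9.22% of the genes tested) and 529 rose (4.95%). The falls were also larger, with a median log2 change of -1.13 against 0.77 for the rises, while the median over the tested genes was 0.00073. At least 2-fold changes, an absolute log2 change of 1 or more, were reached by 616 falling genes (5.76%) and 102 rising genes (0.954%). A change of at least 2 on the log2 scale was reached by 100 falling genes and 6 rising genes. These counts cover genes above 1 FPKM in Ctrl_TTX replicate 1, a silenced library, so genes near 0 in that library that might rise after withdrawal are not among them. The 3 withdrawal libraries lay wholly above or wholly below the 3 TTX libraries for 4708 genes (44.0%), and every called gene was among them. In RNA of whole dishes, fewer cells of a type and less RNA per cell cannot be told apart. The authors' own q-value, in the authors' deposited table, marks 580 genes as higher (5.43%) and 1463 as lower (13.7%), of which 348 and 875 were also called by limma. Some genes named below differ between the 2 methods. Kcnh3, Grm4, Cdk5r1, Nudc and Rgs2, called by limma, have authors' q-values of 0.11, 0.556, 0.289, 0.105 and 0.0504. Egr1 and Grin2c, not called by limma, have authors' q-values of 0.00102 and 0.00617.

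The size of the response depended on single libraries. Without KD_TTXwd replicate 1 the calls dropped to 77 higher and 262 lower, and without KD_TTX replicate 2 to 104 and 341. Without KD_TTX replicate 1 they were 207 and 490. List counts without a library, given below, are to be read beside these totals. Calls held in each of the 12 fits that left out 1 library for 73 rising and 252 falling genes. Without replicate 2 in all 4 groups 0 calls were left in limma (smallest adjusted p = 0.0559), with 1660 genes at an unadjusted p below 0.05. Without the library labelled Ctrl_TTXwd replicate 3 there were 728 and 1272. The predominance of falls depended on scaling: quantile normalization gave 947 higher and 932 lower, a correction for locus span 949 and 909, and a correction for promoter GC content 636 and 636.

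**Figure D1:**
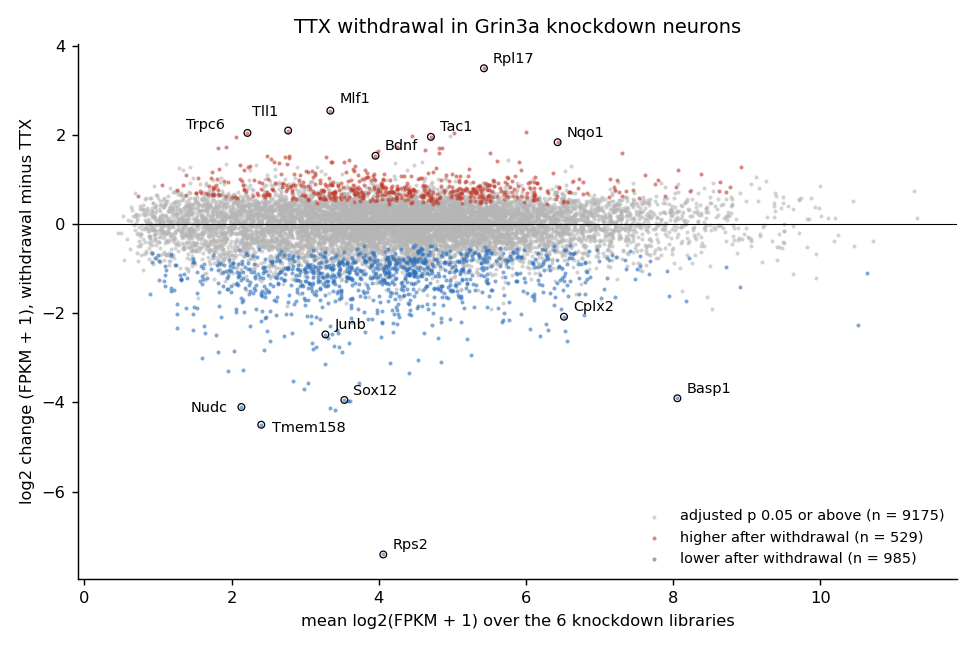
Mean log2(FPKM + 1) over the 6 knockdown libraries (x axis) against the log2 change after withdrawal (y axis), 1 point per tested gene, with the 529 called higher in red and the 985 called lower in blue. Large falls such as Rps2 and Basp1 reach further from 0 than the largest rise, Rpl17.

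Among the 15 largest rises were genes of neuronal signalling, genes of antioxidant defence and genes of the ribosome. The 15 genes in each direction were picked among called genes whose groups do not overlap, so their separation was a condition of entry. Mlf1, whose product shuttles between nucleus and cytoplasm, stood at 3.79, 2.83 and 3.03 FPKM in TTX and at 21.8, 25.4 and 23.6 FPKM after withdrawal. The groups were far apart and the withdrawal libraries close together, for a log2 change of 2.55 ± 0.24 (SE, adjusted p = 0.000568). Trpc6, a calcium-permeable cation channel, went from 1.49, 1.38 and 1.02 to 7.88, 9.07 and 8.44 FPKM, again with no overlap (log2 change 2.05 ± 0.24, adjusted p = 0.00211). Tll1, a secreted metalloprotease of the BMP1 family, rose by 2.1 ± 0.30 (adjusted p = 0.00368). Crhbp, which binds corticotropin-releasing hormone outside the cell, was at 1.55, 0.76 and 1.09 FPKM in TTX and at 6.18, 9.74 and 6.22 FPKM after withdrawal. Even its lowest withdrawal library stood well above every TTX library (log2 change 1.97 ± 0.35, adjusted p = 0.00654). Hpse, the enzyme that cleaves heparan sulphate, rose by 1.73 ± 0.33 (adjusted p = 0.00841). Each of these 5 genes kept its call in all 12 leave-one-library-out fits.

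Rpl17, a protein of the large ribosomal subunit (chr18:70108977-70112083, rn5), had the largest rise among the named genes. It stood at 8.52, 12.2 and 15.8 FPKM in TTX and at 126, 188 and 127 FPKM after withdrawal, 12.0-fold higher by group means. Rpl30 and Rpl22l1 also stood among the 15 largest rises, with log2 changes of 2.08 and 1.71. Ribosomal protein genes have many near-identical processed copies, and how the authors' counting split reads between them is not stated, so these values are uncertain. Rpl22l1 lost its call without KD_TTXwd replicate 1 (adjusted p = 0.079).

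The 15 largest falls had log2 changes of -7.41 to -3.13. Basp1, a membrane protein of growth cones (chr2:97311339-97358165, rn5), stood at 1253, 945 and 927 FPKM in TTX and at 50.0, 102 and 61.3 FPKM after withdrawal. Every TTX library held many times more than any withdrawal library, and the log2 change was -3.91 ± 0.47 (adjusted p = 0.00222), 14.7-fold lower by group means. Rps2, of the small ribosomal subunit (chr10:13903898-13905748, rn5), stood at 179.6, 341 and 166 FPKM in TTX and at 0.27, 0.17 and 0.42 FPKM after withdrawal. This fall, of 7.41 on the log2 scale, was the largest in the comparison (adjusted p = 0.000568), with the same uncertainty about copies. Nudc, a dynein-associated chaperone, was at 21.2, 14 and 17.1 FPKM in TTX, was listed at 0 in KD_TTXwd replicate 1 and stood at 0.038 and 0.145 FPKM in the other 2. Tmem158 was likewise listed at 0 in KD_TTXwd replicate 1. A value of 0 in a table without counts can be a failed estimate, so no fold is given for either gene.

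Sox12, a SoxC transcription factor of developing neurons, stood at 54.1, 45.6 and 35.5 FPKM in TTX and at 1.02, 2.77 and 2.38 FPKM after withdrawal, with no overlap (log2 change -3.94 ± 0.47, adjusted p = 0.00222). Prr7, a postsynaptic protein that can also signal to the nucleus, went from 48.0, 43.3 and 33.5 to 0.96, 1.84 and 1.57 FPKM (log2 change -4.12 ± 0.49, adjusted p = 0.00222). Cebpd, a stress- and cytokine-induced transcription factor, stood at 39.3, 29.6 and 17.5 FPKM in TTX against 1.26, 0.91 and 2.2 FPKM after withdrawal (log2 change -3.56 ± 0.40, adjusted p = 0.0016). Cdk5r2, which encodes the p39 activator of the kinase Cdk5, fell by 3.51 ± 0.45 (adjusted p = 0.00274). Klf13, a Krüppel-like repressor, fell by 3.26 ± 0.41 (adjusted p = 0.00272). Dkc1, the pseudouridine synthase of nucleolar RNPs and telomerase, fell by 3.33 ± 0.50 (adjusted p = 0.00409). Ptrf, the caveolar coat protein cavin-1, fell by 3.13 ± 0.60 (adjusted p = 0.00841). Scand1, C1qtnf4, Bmyc and Prr18 completed the 15, with log2 changes of -3.97, -3.70, -3.56 and -3.30. All 15 held their calls in each of the 12 leave-one-library-out fits.

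**Figure D2:**
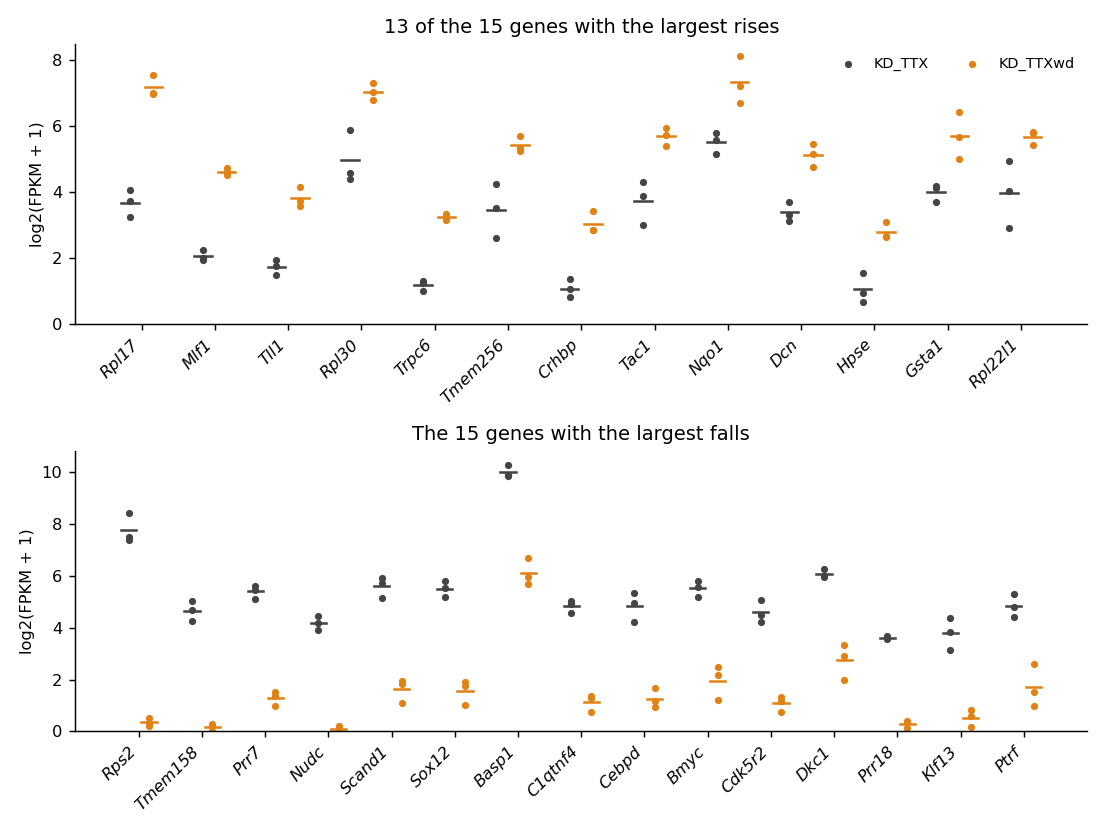
log2(FPKM + 1) of each knockdown library in TTX (grey) and 6 h after withdrawal (orange) for 13 of the 15 largest rises (top) and the 15 largest falls (bottom), with a bar at each group mean. Groups that do not overlap were a condition for entering these lists. The withdrawal libraries of Rps2, Tmem158, Nudc and Prr18 lie near 0.

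Activity-induced transcription factors, the first wave of the response to synaptic input, were lower more often than higher 6 h after withdrawal. Of 25 tested, from 30 in the list, 8 fell and 1 rose (32.0% and 4.0%, against 9.22% and 4.95% of the tested genes). The list's median log2 change was -0.30. Members below 1 FPKM in Ctrl_TTX replicate 1, a silenced library, could not enter these counts, so rises may be missing from them. Junb and Jund, subunits of the AP-1 factor, had the largest falls of the list. Junb stood at 20.4, 25.8 and 19.8 FPKM in TTX and at 1.42, 3.42 and 5.49 FPKM after withdrawal, a clear separation with the spread mostly on the withdrawal side (log2 change -2.47 ± 0.39, adjusted p = 0.00513). Jun stood at 97.7, 112 and 103.9 FPKM in TTX against 35.8, 38.6 and 33.9 FPKM after withdrawal, both groups tight (log2 change -1.51 ± 0.22, adjusted p = 0.00396). Jund fell by 2.36 ± 0.34 (adjusted p = 0.00372). Ier2, Per1, Egr3, Klf4 and Fosl1 fell by 1.54, 1.37, 1.26, 0.74 and 0.71, and each lost its call in at least 1 leave-out (highest adjusted p = 0.0578 to 0.106), without KD_TTXwd replicate 1 or, for Klf4, without KD_TTX replicate 2. Without KD_TTXwd replicate 1 the list held 3 falls and 1 rise, against 262 falls and 77 rises over the tested genes.

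Fos, the AP-1 subunit used most often as a marker of activity, stood at 32.1, 20.6 and 15.7 FPKM in TTX and at 10.9, 25.7 and 30.2 FPKM after withdrawal. The groups overlapped (log2 change -0.09 ± 0.39, adjusted p = 0.904). Egr1, a zinc finger factor, went from 55.3, 41.0 and 20.7 to 9.54, 14.7 and 10.7 FPKM with no overlap but a wide spread in TTX, and did not pass (log2 change -1.58 ± 0.61, adjusted p = 0.105). Arc, which acts in AMPA receptor endocytosis, was low and overlapping, at 1.27 to 3.69 FPKM in TTX and 1.16 to 2.16 FPKM after withdrawal (adjusted p = 0.75). Homer1, a postsynaptic scaffold with an activity-induced short form, had a log2 change of 0.30 ± 0.17 (adjusted p = 0.251); the table gives 1 value per gene, so the short form was not analysed here. Npas4 and Nr4a1 were not analysed here.

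Crem was the member that rose. It encodes cAMP response element modulators, among them the repressor ICER, which is made from an internal promoter known for its cAMP response elements. It stood at 3.22, 5.98 and 7.40 FPKM in TTX and at 15.1, 15.7 and 15.9 FPKM after withdrawal. The withdrawal libraries were nearly equal and all above the TTX libraries, for a log2 change of 1.4 ± 0.23 (adjusted p = 0.00526) that held in all 12 leave-outs.

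Activity-induced effectors, the later wave of secreted factors, signalling regulators and synaptic proteins, rose more often than they fell. Of 33 tested, 7 rose and 2 fell (21.2% and 6.06%), with a median log2 change of 0.27. Bdnf, the neurotrophin that strengthens and matures synapses (chr3:107371328-107421906, rn5), stood at 5.25, 9.12 and 11 FPKM in TTX and at 19.4, 26.5 and 32.1 FPKM after withdrawal. The lowest withdrawal library was well above the highest TTX library, and the group means differed 3.07-fold (log2 change 1.54 ± 0.30, adjusted p = 0.00992). Tac1, the precursor of substance P, stood at 7.03, 13.8 and 18.7 FPKM in TTX and at 52.2, 60.5 and 41.0 FPKM after withdrawal (log2 change 1.96 ± 0.34, adjusted p = 0.00654). Rgs2, which shortens Gq signalling, stood at 15.3, 12.3 and 11.6 FPKM against 36.6, 52.4 and 42.3 FPKM (log2 change 1.67 ± 0.25, adjusted p = 0.00432). Rgs4, a related regulator of G protein signalling, and Sorcs3, a sorting receptor that binds neurotrophin precursors, rose by 1.4 and 1.52 (adjusted p = 0.00734 and 0.00518). These 5 held in all 12 leave-outs.

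The remaining rises in the list were smaller. Plk2, a kinase that lowers synaptic strength after prolonged activity, stood at 50.6, 56.5 and 62.2 FPKM in TTX and at 80.5, 89.3 and 79.5 FPKM after withdrawal (log2 change 0.55, adjusted p = 0.0433), and lost its call without KD_TTXwd replicate 2 (adjusted p = 0.133). Rasgrp1, a Ras activator, rose by 0.68 (adjusted p = 0.0468) and lost its call without KD_TTX replicate 2 (adjusted p = 0.146). Gadd45g, a growth arrest protein, and Pcdh8, an activity-regulated protocadherin, fell by 1.2 and 1.54, both lost without KD_TTXwd replicate 1 (adjusted p = 0.11 and 0.136). Scg2, a granin, stood at 110 to 157 FPKM in TTX and at 224 to 262 FPKM after withdrawal without passing (adjusted p = 0.0775). Nptx2 and Vgf, a pentraxin and a neuropeptide precursor, also did not pass (log2 changes 0.66 and 0.41).

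Promoters were read because the rises include known targets of CREB, which binds the cAMP response element TGACGTCA. Of the genes tested, 8775 (82.1%) matched a start in the RefSeq promoter table for build GRCr8, where a window runs from 250 bases before to 50 bases after a start and a gene can have several. The full element, which reads the same on both strands, was in 20 of 460 windows of risen genes (4.35%) and in 29 of 828 windows of fallen genes (3.5%). It was in 303 of 9212 windows of the tested genes (3.29%) and in 612 of 33469 windows of the whole table (1.83%). The shorter core TGACG, on either strand and overlapping the full element, was in 35.2% of risen, 29.8% of fallen and 32.3% of tested windows. The 6 Bdnf windows held no full element, which says only that these letters are not within those bases. Crem and Mlf1 are shown because they rose and hold the element, with TGACGTCA in capitals and the sequence 5′ to 3′ on the plus strand, from chr17:58985240-58985539 and chr2:153958341-153958640 (GRCr8).
Crem: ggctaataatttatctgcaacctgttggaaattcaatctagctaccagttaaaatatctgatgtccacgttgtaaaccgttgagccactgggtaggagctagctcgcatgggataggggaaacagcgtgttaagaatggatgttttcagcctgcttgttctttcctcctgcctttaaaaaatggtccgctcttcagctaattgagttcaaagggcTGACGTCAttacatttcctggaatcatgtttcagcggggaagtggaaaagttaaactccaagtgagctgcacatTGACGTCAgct
Mlf1: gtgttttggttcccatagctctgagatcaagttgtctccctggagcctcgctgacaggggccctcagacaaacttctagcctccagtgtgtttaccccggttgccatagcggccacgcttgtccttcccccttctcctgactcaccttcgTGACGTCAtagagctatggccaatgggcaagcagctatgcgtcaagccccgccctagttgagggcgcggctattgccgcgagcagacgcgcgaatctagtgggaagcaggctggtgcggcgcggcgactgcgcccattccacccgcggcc

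The Crem window holds the element 2 times and the Mlf1 window 1 time. Another Crem start, at chr17:58984547-58984846, also holds it 1 time. The element was not particular to risen genes: the windows of Jund, Ier2 and Cox8a, which fell, each hold it as well.

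Most glutamate receptor genes did not pass the test, and those that did fell, apart from Cacng3. Of 6 NMDA receptor subunits tested, 2 fell (33.3%, against 9.22% of the tested genes) and 0 rose. The median log2 change was -0.70, and without KD_TTX replicate 1 the list held 0 calls. Grin2b, the juvenile GluN2 subunit, stood at 32.3, 33.8 and 29.2 FPKM in TTX and at 18.0, 13.7 and 12.6 FPKM after withdrawal, with no overlap (log2 change -1.07 ± 0.28, adjusted p = 0.0276). Grin2d stood at 6.79, 4.70 and 4.12 FPKM against 1.42, 2.60 and 1.82 FPKM (log2 change -1.07 ± 0.26, adjusted p = 0.0208). Grin2b lost its call without KD_TTX replicate 2 (adjusted p = 0.0981) and Grin2d without KD_TTXwd replicate 1 (adjusted p = 0.099). Grin1, the obligatory subunit, stood at 64.3, 48.5 and 46.0 FPKM in TTX and at 36.8, 36.2 and 40.0 FPKM after withdrawal (adjusted p = 0.284). Grin2a, the GluN2 subunit of mature synapses, overlapped between groups at 4.39 to 6.90 and 4.50 to 6.43 FPKM (log2 change -0.08 ± 0.24, adjusted p = 0.858). Grin2c, low throughout, did not pass (adjusted p = 0.0746).

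Of 19 genes for AMPA or kainate receptors and auxiliary subunits, 5 fell (26.3%) and 1 rose (5.26%), with a median log2 change of -0.18. The changes lay in the auxiliary and kainate genes. Cacng2, which encodes stargazin, the protein that carries AMPA receptors to the synapse, stood at 32.1, 20.2 and 19.5 FPKM in TTX and at 6.62, 8.94 and 7.18 FPKM after withdrawal (log2 change -1.51 ± 0.27, adjusted p = 0.00727). Cacng3, a relative with a similar role, moved in the opposite direction, from 9.11, 10.8 and 11.4 to 22.8, 26.5 and 22.7 FPKM (log2 change 1.13 ± 0.21, adjusted p = 0.0076). Both held in all 12 leave-outs. Cacng8, Grik5, Cacng4 and Grik4 fell by 1.47, 1.26, 0.94 and 0.76, and each lost its call without KD_TTXwd replicate 1 (adjusted p = 0.0607 to 0.181). The main pore subunits Gria1 and Gria2 did not pass, with log2 changes of -0.18 and 0.05. Of 6 metabotropic receptors 2 fell (33.3%). Grm4 stood at 3.41, 2.30 and 2.86 FPKM against 0.30, 0.84 and 0.72 FPKM (log2 change -1.26 ± 0.21, adjusted p = 0.0055). Grm2 (log2 change -0.85) lost its call without KD_TTXwd replicate 1 (adjusted p = 0.122).

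Postsynaptic scaffolds and adhesion molecules had the highest share of falls among the lists, 12 of 32 (37.5%) with 0 rises and a median log2 change of -0.43. Dlgap3, a scaffold that ties PSD-95 to Shank proteins, stood at 27.3, 27.0 and 28.2 FPKM in TTX, almost without spread, and at 1.95, 4.73 and 3.43 FPKM after withdrawal (log2 change -2.76 ± 0.44, adjusted p = 0.00518). Lrrc4b, a synaptic adhesion molecule, stood at 205, 159.8 and 159 FPKM against 21.8, 37.9 and 32.0 FPKM (log2 change -2.50 ± 0.34, adjusted p = 0.00337). Shank1 stood at 91.7, 72.0 and 59.6 FPKM against 12.3, 21.2 and 13.5 FPKM (log2 change -2.2 ± 0.41, adjusted p = 0.00804). In each of the 3 the groups lay far apart. Nrxn2, a presynaptic neurexin, and Nlgn2, the neuroligin of inhibitory synapses, fell by 2.14 and 1.53. Shank3, Shank2, Dlgap4, Dlgap1, Ephb2 and Homer3 also fell, with log2 changes between -0.65 and -1.37. Dlg4, which encodes PSD-95, stood at 189 to 203 FPKM in TTX and 99.4 to 142 FPKM after withdrawal without passing (log2 change -0.74, adjusted p = 0.138). Without KD_TTXwd replicate 1, 5 members were called.

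Of 35 synaptic vesicle and release genes 5 fell and 0 rose, a share of 14.3%, with a median log2 change of -0.51. Cplx2, a complexin that clamps and then triggers vesicle fusion, stood at 235, 154 and 182 FPKM in TTX and at 38.7, 44.4 and 48.3 FPKM after withdrawal (log2 change -2.08 ± 0.31, adjusted p = 0.00396). The TTX libraries were spread but all well above the withdrawal libraries. Syt3, Rph3a, Syt7 and Rims1, calcium sensors and active zone proteins, fell by 1.34, 1.07, 0.95 and 0.80. Of 28 growth cone and microtubule proteins 5 fell and 0 rose (17.9% fell, median -0.60): Basp1 and Cdk5r2 above, Dpysl5 (-2.0), Cdk5r1 (-1.51) and Map1a (-1.23). Without KD_TTX replicate 1 the vesicle list held 1 call and the growth cone list 3.

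Axon guidance genes split by member. Of 39 tested, 9 fell (23.1%) and 2 rose (5.13%), with a median log2 change of -0.29. Unc5b, a netrin receptor, stood at 8.44, 8.86 and 6.83 FPKM in TTX and at 1.76, 2.34 and 2.18 FPKM after withdrawal (log2 change -1.54 ± 0.25, adjusted p = 0.00518). Its relative Unc5a fell by 1.61, Sema6b and Sema5b by 1.38 and 1.29, and Efnb1, Efnb3, Slit1, Plxnd1 and Sema3f by 0.86 to 1.24. Efna5, an ephrin ligand, and Sema3a, a secreted repellent, rose by 1.19 and 0.88. Without KD_TTXwd replicate 1 the list held 1 fall and 0 rises.

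Ion channel genes fell where they changed. Of 46 potassium and HCN channel genes 11 fell and 0 rose (23.9%, median log2 change -0.18). Kcnh3, a channel of the EAG family, stood at 11.6, 10.4 and 10.8 FPKM in TTX and at 1.95, 4.11 and 3.22 FPKM after withdrawal (log2 change -1.58 ± 0.39, adjusted p = 0.0229). Hcn4, a pacemaker channel, stood at 8.44, 9.11 and 8.11 FPKM against 1.91, 3.21 and 3.04 FPKM (log2 change -1.38 ± 0.30, adjusted p = 0.0141). Kcng1, Kcnn1, Hcn3, Kcnk3, Kcnc4, Hcn2 and Kcnc1 fell by 0.83 to 1.51. Of 23 sodium and calcium channel genes 7 fell and 0 rose (30.4%, median -0.22). The 3 T-type calcium channel genes were all among them, with log2 changes of -1.25 for Cacna1h, -1.18 for Cacna1g and -1.18 for Cacna1i. Cacna1h stood at 18.54, 18.9 and 17.2 FPKM in TTX and at 5.68, 7.59 and 8.21 FPKM after withdrawal (adjusted p = 0.0113). Cacna1g, Cacna1h, Cacna1i, Kcnh3 and Hcn4 lost their calls without KD_TTXwd replicate 1 (adjusted p = 0.0629 to 0.106). Without KD_TTX replicate 2, 1 potassium or HCN channel and 0 sodium or calcium channels were called.

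Genes of inhibitory transmission moved in both directions or did not pass. None of 11 GABA-A receptor subunits passed in limma (3 had an unadjusted p below 0.05), and 9 of the 11 had a positive log2 change (median 0.46). Of 18 neuropeptides and granins 2 rose (11.1%), Tac1 and Crhbp, and 0 fell (median 0.41). Gad1, the enzyme that makes GABA, stood at 28.6, 18.2 and 16.8 FPKM in TTX and at 52.2, 47.5 and 40.0 FPKM after withdrawal (log2 change 1.13 ± 0.27, adjusted p = 0.0214). Slc32a1, which loads GABA into vesicles, moved the opposite way, from 13.5, 11.9 and 13.9 to 2.45, 5.79 and 2.82 FPKM (log2 change -1.65 ± 0.38, adjusted p = 0.0175). Both lost their calls without KD_TTXwd replicate 1 (adjusted p = 0.0961 and 0.0849). Maf and Dlx2, transcription factors of interneurons, fell by 2.02 and 1.87. Maf lost its call without KD_TTX replicate 1 (adjusted p = 0.0685) and Dlx2 without KD_TTXwd replicate 1 (adjusted p = 0.0529). Of 15 GABAergic markers 4 fell (26.7%) and 1 rose (6.67%). By sign 11 were negative and 4 positive, the latter including Gad2 (0.50), Sst (0.44) and Pvalb (0.65), which did not pass. Without KD_TTXwd replicate 1 the list held 0 calls.

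Of 20 MEF2 and CREB factors and cofactors 6 fell and 0 rose (30.0%, median log2 change -0.56). Crtc1, the CREB coactivator that travels from synapse to nucleus, stood at 59.9, 35.8 and 27.4 FPKM in TTX and at 6.60, 10.1 and 8.80 FPKM after withdrawal (log2 change -2.09 ± 0.38, adjusted p = 0.00729). Atf5, Mef2d, Hdac4, Mef2a and Ppp3ca fell by 1.82, 1.2, 0.85, 0.77 and 0.71. Mef2c was not analysed here. The count was 1 without KD_TTX replicate 2. Of 25 chromatin remodelers and histone methylation enzymes 5 fell and 0 rose (median -0.14). Chd5, a neuronal CHD remodeler, stood at 38.7, 32.4 and 33.0 FPKM against 11.2, 14.5 and 14.6 FPKM (log2 change -1.31 ± 0.24, adjusted p = 0.00729). Ehmt2, Kdm6b, Smarca4 and Arid1a were the others, and without KD_TTXwd replicate 1 the list held 1 fall.

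GluN3A is known to bind GIT1 and to restrain mTOR-dependent protein synthesis, so that pathway was read as a list. Of 28 members 2 fell and 2 rose, near the shares of the tested genes, and the median log2 change was -0.09 (0.03 under quantile normalization). Git1 itself stood at 71.1, 77.7 and 74.7 FPKM in TTX and at 27.1, 46.9 and 41.8 FPKM after withdrawal (log2 change -0.97 ± 0.29, adjusted p = 0.0444), and held its call in 3 of 12 leave-outs. Akt1, a kinase upstream of mTOR, fell by 0.97 ± 0.28 (adjusted p = 0.0383). Ddit4l, an inhibitor of mTOR complex signalling, stood at 13.5, 20.8 and 16.7 FPKM in TTX and at 32.9, 37.2 and 48.2 FPKM after withdrawal (log2 change 1.17 ± 0.27, adjusted p = 0.0188). Sesn1, which inhibits the same complex when amino acids are scarce, rose by 0.88. None of the 4 was called without KD_TTXwd replicate 1. Of 16 feedback inhibitors of MAP kinase signalling 3 fell (18.8%, against 9.22% of the tested genes). They were Spred3, Dusp8 and Dusp7, by 1.37, 1.23 and 0.97, and none of these was called without that library.

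Ribosomal protein genes rose more often than they fell. Of 55 cytosolic ribosomal proteins 13 rose (23.6%) and 4 fell (7.27%), with a median log2 change of 0.40. Beside Rpl17 and Rpl30, the rises included Rps25 (1.4) and Rps12 (0.62). Rps2, Rpl27a, Rplp1 and Rpl29 fell by 7.41, 3.05, 1.87 and 1.43. Without KD_TTXwd replicate 1 the list held 2 rises and 1 fall. Of 69 oxidative phosphorylation subunits 6 fell and 3 rose (8.7% and 4.35%), shares close to those of the tested genes; quantile normalization gave 5 and 8. Cox8a, of cytochrome c oxidase, stood at 243, 197 and 197 FPKM in TTX and at 33.1, 46.7 and 40.0 FPKM after withdrawal (log2 change -2.39 ± 0.30, adjusted p = 0.00274).

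Antioxidant genes of the NRF2 programme rose where they changed, 5 of 26 with 0 falls (19.2%, median log2 change 0.35). Nqo1, a quinone reductase, stood at 34.8, 46.8 and 54.6 FPKM in TTX and at 149, 104 and 277 FPKM after withdrawal, 3.89-fold higher by group means and widely spread (log2 change 1.84 ± 0.43, adjusted p = 0.0186). Gsta1, Prdx1, Gclc and Me1, which conjugate or make glutathione, reduce peroxides or make NADPH, rose by 1.71, 1.07, 1.07 and 0.83. Without KD_TTX replicate 1 none of the 5 was called. Of 18 p53 response genes 2 rose (11.1%, against 4.95% of the tested genes), Tp53inp1 by 1.14 ± 0.18 (adjusted p = 0.00463) and Sesn1. Of 27 stress genes (unfolded protein and integrated stress response) 2 fell (7.41%), below the 9.22% of the tested genes that fell. They were Manf, by 1.61 ± 0.20 (adjusted p = 0.00258), and Phgdh, by 0.73. Of 15 heat shock genes 1 fell (6.67%), also below that share. It was the small chaperone Hspb1, by 2.12 ± 0.46 (adjusted p = 0.0144), lost without KD_TTXwd replicate 1 (adjusted p = 0.0666). Of 23 glycolysis and hypoxia genes 3 fell (13.0%), Pfkl by 1.89, Pkm by 1.09 and Hk1 by 0.75. None of 23 cholesterol synthesis enzymes (median 0.48) passed in limma, and 4 had an unadjusted p below 0.05. None of 14 interferon-stimulated genes passed in limma (median -0.04, or 0.01 under quantile normalization), and 3 had an unadjusted p below 0.05.

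**Figure D3:**
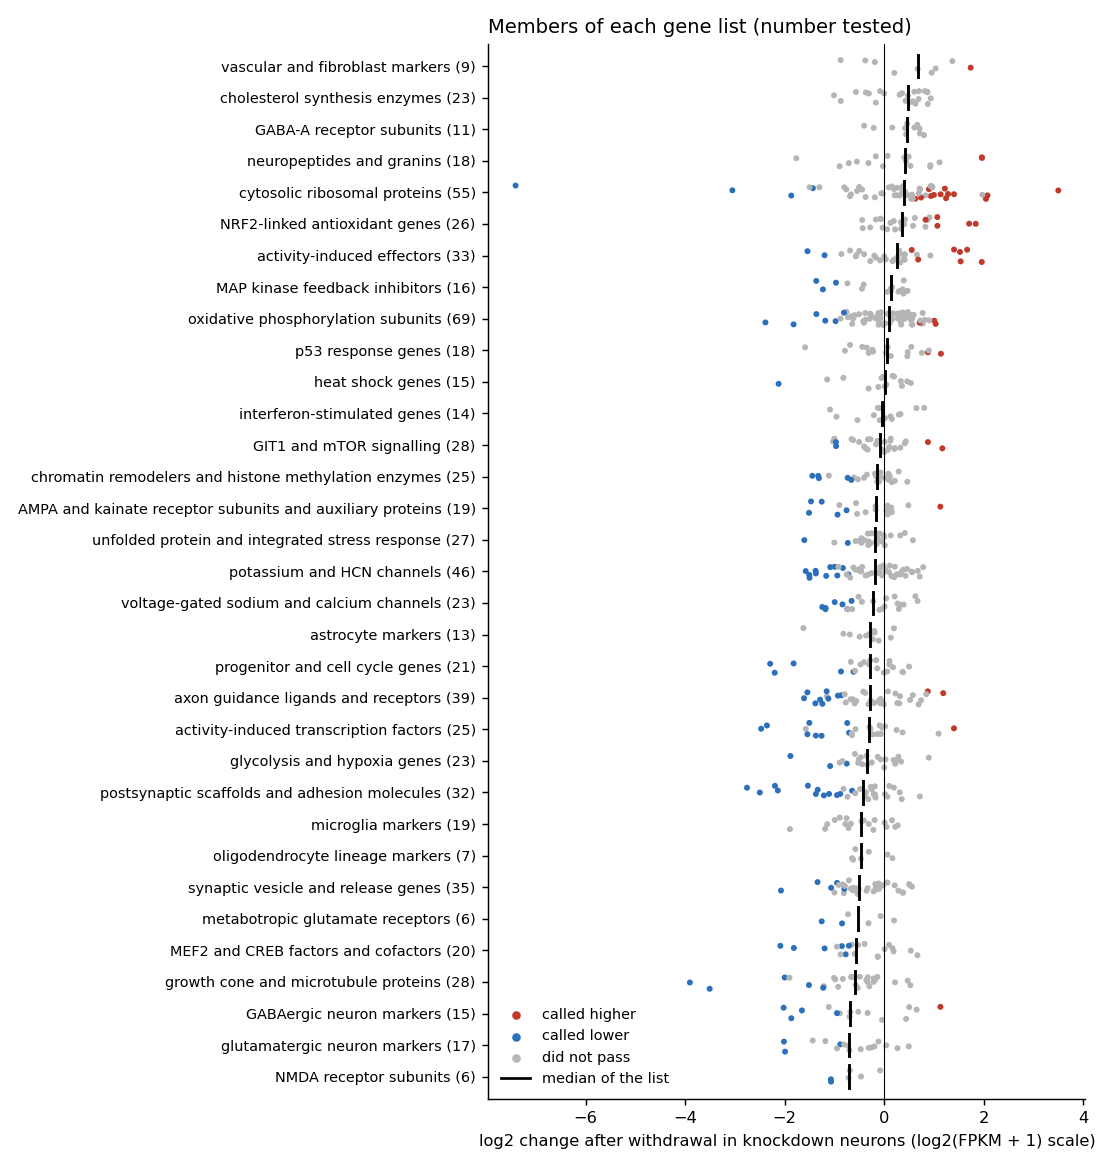
Log2 change after withdrawal in knockdown neurons (x axis) for each tested member of 33 gene lists (rows, number tested in brackets), red where called higher, blue where called lower and grey where the test was not passed, with a black bar at the list's median. Red points stand mainly in the effector, ribosomal and NRF2-linked lists, and the scaffold list holds blue points for 12 of 32 members and no red.

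Marker sums describe the cell types in the dishes. The summed level of 17 glutamatergic markers (of 20 in the list) was 1169 to 1394 FPKM in TTX and 715 to 971 FPKM after withdrawal, with no overlap. Of the 17 members 3 fell (17.6%): Nrgn by 2.02, Neurod2 by 1.99 and Neurod1 by 0.88. The sum of 15 GABAergic markers (of 19) was 299 to 374 FPKM in TTX and 244 to 344 FPKM after withdrawal, and overlapped. The glutamatergic sum moved with the falls of receptor, scaffold, vesicle and channel genes above, and its part in them was not tested. The sums of 13 astrocyte markers (3849 to 7236 and 3142 to 5749 FPKM) and of 19 microglia markers (285 to 942 and 104 to 859 FPKM) overlapped between the groups. In limma 0 astrocyte, 0 microglia and 0 of 7 oligodendrocyte markers passed, and 2, 0 and 2 had an unadjusted p below 0.05. None of the tested markers was listed at 0 in a knockdown library. The summed level of 9 vascular and fibroblast markers was 48.5 to 67.8 FPKM in TTX and 98.4 to 149 FPKM after withdrawal. Of these 9 markers 6 had a positive and 3 a negative log2 change, with Col1a1 at -0.88 and Col3a1 at -0.19. The 1 called member (11.1%) was Dcn, a matrix proteoglycan. Dcn rose from 7.70, 8.94 and 12.1 to 34.6, 42.7 and 26.1 FPKM (adjusted p = 0.0158), and was lost without KD_TTXwd replicate 1 (adjusted p = 0.0666). The sum of these markers moved with the rises of genes such as Hpse and Tll1, and its part in them was not tested. Of 21 progenitor and cell cycle genes 5 fell (23.8%, against 9.22% of the tested genes). Hes5, Id3 and Id1 fell by 2.29, 2.2 and 1.82, and Ccnd2 and Mcm2 by 0.87 and 0.62.

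The control neurons answered withdrawal with 1896 called genes (17.7%), 707 higher (6.61%) and 1189 lower (11.1%). Without the library labelled Ctrl_TTXwd replicate 3 the control calls numbered 956. The knockdown and control responses share no library, but both were tested with the same estimate of spread per gene, over all 12 libraries. A gene with little spread is therefore more easily called in both, so the 2 lists of calls are not independent. Same-numbered libraries of the 2 genotypes had the same order of microglia marker sums within an activity state (values in the closing section). Whether they share preparations is not stated, so the 2 responses may not be independent. Of the 529 genes that rose in knockdown neurons 272 also rose in control, 51.4% of the knockdown and 38.5% of the control rises. Of the 985 that fell 502 also fell in control, 51.0% of the knockdown and 42.2% of the control falls. No gene was called in opposite directions by limma. The control change had the same sign for 97.7% of the knockdown rises and 96.2% of the falls, against 49.2% and 50.8% of the tested genes with that sign. Its median over those genes was 0.59 and -0.80. Across the 10689 genes the 2 changes had a Spearman correlation of 0.59 (Pearson 0.65), given as a description because genes are not independent replicates. Without the library labelled Ctrl_TTXwd replicate 3 these were 0.53 and 0.58.

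The difference between the 2 responses, tested as an interaction, passed for 0 genes in limma, with a smallest adjusted p of 0.492. An unadjusted p below 0.05 was reached by 1050 genes (9.82%). Without the library labelled Ctrl_TTXwd replicate 3 the difference passed for 0 genes, with 1313 at an unadjusted p below 0.05. No gene can therefore be called particular to knockdown neurons. The following are among the 10 genes with the smallest p for the difference. Ddit4l changed by 1.17 in knockdown and by 2.84 in control neurons. Prkaa2, a catalytic subunit of AMP-activated kinase, had log2 changes of 0.12 and -0.94. Hivep2, Wnk3, Fut9, Prkx and Bmi1 likewise had changes of 0.03 to 0.29 in knockdown and of -1.12 to -0.64 in control. Snapc2 and Hebp1 had changes of -0.43 and -0.45 in knockdown and of 0.75 and 0.47 in control.

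Some members described above also had unequal values. Jun changed by -1.51 in knockdown and -0.40 in control, Junb by -2.47 and -0.80, and Cebpd by -3.56 and -1.60. Id3 changed by -2.2 and -0.51, and Hspb1 by -2.12 and -0.54. Grin2a changed by -0.08 in knockdown and by -1.39 in control. Bdnf changed by 1.54 and 0.90, and Crem, Basp1 and Rpl17 by nearly the same amount in both, 1.4 and 1.38, -3.91 and -3.85, and 3.50 and 3.46. The median of the GABA-A receptor subunits was 0.46 in knockdown and -0.55 in control, and that of the cholesterol synthesis enzymes 0.48 and -0.34. The postsynaptic scaffolds had medians of -0.43 and -0.91. None of these differences passed the adjustment over all genes, and the medians were not tested. Change also moved with the span of the locus, in opposite directions in the 2 genotypes (values below), and its part in these differences was not tested. Library preparation dates and RNA quality are not given in the sources used here.

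**Figure D4:**
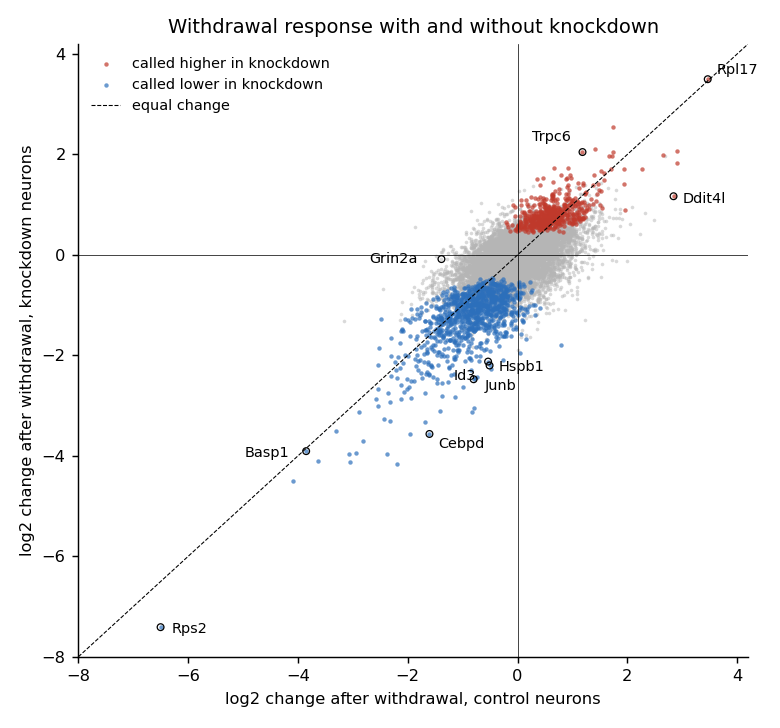
Log2 change after withdrawal in control neurons (x axis) against that in knockdown neurons (y axis), 1 point per tested gene, coloured where called in knockdown neurons, with a dashed line of equal change. Basp1 and Rpl17 lie on or near the line, and Junb, Id3, Hspb1 and Grin2a lie off it, though no difference passed the adjustment.

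The called genes differed in the span of their loci, taken from the deposited rn5 coordinates. The median span was 24.7 kb for the rises and 18.0 kb for the falls, against 23.8 kb over the tested genes. Loci below 3 kb made up 12.5% of the falls, 6.24% of the rises and 6.56% of the tested genes. Among the 15 largest falls named above the median span was 1.47 kb and 9 lay below 3 kb, and among the 15 largest rises it was 14.9 kb and 4 lay below 3 kb. In control neurons the order was different, with a median of 14.9 kb for the rises and 44.5 kb for the falls. In the shortest of 5 equal bins (0.18 to 7.7 kb) 268 genes fell and 97 rose in knockdown, against 164 and 214 in control. In the longest (76.1 kb and above) 137 fell and 98 rose in knockdown, against 404 and 78 in control.

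Across the 10689 genes the Spearman correlation of change with span was 0.10 in knockdown and -0.21 in control, and 0.38 for the difference between the responses. Leaving out 1 library gave 0.0438 to 0.163 in knockdown and -0.258 to -0.0969 in control. These are descriptions over genes that share libraries.

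**Figure D5:**
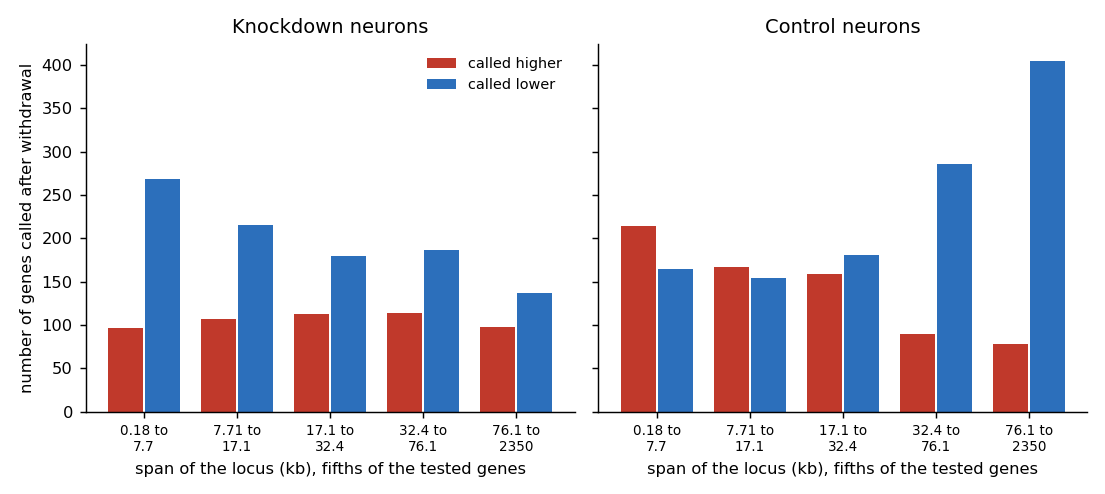
Number of genes called higher (red) and lower (blue) after withdrawal in 5 equal bins of locus span in kb, for knockdown (left) and control neurons (right). Falls are most frequent in the shortest bin in knockdown neurons, 268, and in the longest bin in control neurons, 404.

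Promoter composition differed in the same direction in both. The median GC content of the 300-base windows was 64.7% for knockdown falls, 59.7% for rises and 61.3% for the tested genes with a window, and 66.0% and 58.0% for control falls and rises. The correlation of change with GC content over 8775 genes was -0.18 in knockdown and -0.215 in control. The windows of fallen genes held a median of 24 CpG dinucleotides, those of risen genes 20, and those of the tested genes 21. Among the 15 largest falls, 10 had a window and their median GC content was 71.0%, and among the 15 largest rises, 11 had one with a median of 55.0%. Sox12 and Prr7 are shown as fallen genes with dense CpG, with each CG in capitals, 5′ to 3′ on the minus strand, from chr3:161320770-161321069 and chr17:9171486-9171785 (GRCr8, RefSeq).
Sox12: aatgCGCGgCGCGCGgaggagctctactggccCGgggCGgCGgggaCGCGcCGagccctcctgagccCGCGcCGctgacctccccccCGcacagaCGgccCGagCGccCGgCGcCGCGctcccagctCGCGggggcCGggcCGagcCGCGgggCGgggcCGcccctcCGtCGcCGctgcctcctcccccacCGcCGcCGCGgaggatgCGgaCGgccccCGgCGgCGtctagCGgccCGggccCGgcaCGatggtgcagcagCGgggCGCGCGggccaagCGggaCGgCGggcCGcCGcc
Prr7: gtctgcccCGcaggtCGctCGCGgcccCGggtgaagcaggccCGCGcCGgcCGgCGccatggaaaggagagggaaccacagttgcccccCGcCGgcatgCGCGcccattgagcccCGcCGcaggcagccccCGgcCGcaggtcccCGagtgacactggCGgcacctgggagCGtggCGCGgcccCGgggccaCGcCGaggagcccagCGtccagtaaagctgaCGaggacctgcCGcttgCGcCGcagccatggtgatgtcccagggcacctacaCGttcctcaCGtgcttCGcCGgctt

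The Sox12 window holds 55 CpG and has a GC content of 84.3%, and the Prr7 window holds 35 and has 73.7%. The Crem window shown earlier has a GC content of 44.0% and the Mlf1 window 61.3%. With each library corrected for the trend on promoter GC content, a step chosen after seeing the data and possible for 8775 genes, 1023 of the 1226 calls with a window remained.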

How the data were processed

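Stranded mRNA libraries of cultured rat hippocampal neurons, read as 50 nt single ends per the labels' protocols, were deposited by the authors as FPKM per gene and library, per the file headers. The submitters' processing notes name Trimmomatic, TopHat2, Cufflinks, Cuffdiff and genome build rn5, with no versions; the scaling between libraries is not given in the sources used here. The table deposited by the authors also holds log2 fold changes and a q-value per comparison. No value of Ctrl_TTX replicate 1 is below 1.0008 FPKM, while the minimum elsewhere is 0 or 0.0436; selection on that library is apparent, and genes silent in that library were not analysed here. Of 18 symbols turned into dates, 17 were resolved by transcript accession. 1 gene whose group value differed from the mean of its libraries by more than 1% was left out.

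Groups were taken from the labels. limma 3.58.1 (R 4.3.3, trend = TRUE) was fitted to log2(FPKM + 1) of all 12 libraries as 4 group means, leaving 8 residual degrees of freedom. It covered 10689 of 10729 kept genes, those reaching 1 FPKM in 3 or more libraries. Tests were two-sided, adjusted by Benjamini-Hochberg over these genes, at a threshold of 0.05. Changes on this scale understate the fold of low genes. Errors are standard errors from limma, with 3 libraries per group. The fit was tested on simulated data.

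The members and the 33 gene lists were chosen with earlier results of these data known. 125 genes were picked by rule: the NMDA receptor subunits, the 15 largest called changes per direction (a group mean of 2 FPKM or more, groups not overlapping), up to 4 called members per list, set activity genes, and the 10 smallest p of the difference. Some genes the rule picks are not reported here. Other list members were named after their values were seen. Promoter windows and GC content are from RefSeq, GRCr8. Alternatives were the pseudocount, the filter, rescaling, the spread, a replicate block, corrections for span and GC content, and leaving out libraries.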

Additional observations from a re-analysis of the deposited data

How the results depend on the processing

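In knockdown neurons the 529 rises and 985 falls became 517 and 992 with a pseudocount of 0.1, 528 and 978 without the filter, 483 and 889 at a mean FPKM of at least 5, 604 and 959 with median-ratio scaling and 519 and 970 with robust moderation. Quantile normalization gave 947 rises and 932 falls, the correction for locus span 949 and 909, and that for promoter GC content, on 8775 genes, 636 and 636, so the share of rises among calls went from 34.9% to 50.4%, 51.1% and 50.0%. The spread of the 6 knockdown libraries alone gave 910 and 1591. Leaving out libraries gave 0 to 1026 rises and 0 to 1605 falls, the lowest without replicate 2 in all groups (smallest adjusted p 0.0559) and the highest without Ctrl_TTX replicate 1. Of the 125 genes picked by rule 108 were called, 46 of them in all 12 leave-outs, and each that was fitted kept its direction in every setting run. The control calls, 1896, were 1255 with the GC correction and 0 to 1990 over the leave-outs. The difference between the responses passed for 0 genes in every setting in which limma tested it, with 378 to 1537 genes at an unadjusted p below 0.05. The correlation of change with span became -0.0284 after the span correction and that with promoter GC content 0.0233 after the GC correction, by construction. Same-numbered knockdown libraries of TTX and withdrawal deviated with correlations of 0.314, -0.179 and -0.448. With 3 libraries per group these values cannot decide whether the numbers pair these 2 groups, and the main fit does not pair them. Across genotypes, same-numbered libraries had the same order of microglia marker sums within an activity state. In replicate order the sums were 942, 796 and 285 FPKM in KD_TTX and 1149, 693 and 347 FPKM in Ctrl_TTX. They were 691, 104 and 859 FPKM in KD_TTXwd and 1143, 193 and 2820 FPKM in Ctrl_TTXwd. Shared preparation was not tested. With the replicate block there were 553 rises and 1014 falls, and on the 6 knockdown libraries with the block 543 and 1380, where Grin3a (-0.72) had an adjusted p of 0.038, against 0.102 on those 6 libraries without the block and 0.256 over the 12 libraries. With the number of reads unknown, low values such as those of Rps2 after withdrawal have no counting limit.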
